A study of Mus musculus with 6 samples.

Results

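The macrophage and monocyte identity genes are 42 genes chosen by name, which cover the lineage factors, the growth factor receptor, surface receptors, scavenger receptors, oxidase subunits and activation markers of these cells. A named probe set was found for 40 of the 42, out of 19505 named genes on the array, and each of the 40 had 1 probe set. Cd68 and Clec7a had none under their symbols and were not analysed here. The RNA came from whole submandibular glands, a pair of large salivary glands, of 6 female NOD mice aged 10 weeks. Of these, 3 carried wild-type Myd88 (strain label NOD.B6-Myd88+/+) and 3 were NOD.B6-Myd88−/−, without a functional copy by label. All 6 mice share the NOD background, a strain that develops autoimmune infiltrates of its salivary glands, and no treatment is named. The label names the genotype of the mouse and no promoter or Cre, so the mutation is not tied to macrophages, and a segment around the gene may come from the other strain in the name. Each mouse gave 1 Clariom S array, and its values are on the log2 scale of RMA, the robust multi-array average, so that a difference of 1 is a 2-fold difference.

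Macrophages live in most tissues, where they take up dying cells, foreign particles and modified proteins, and monocytes from the blood add to them when tissue is inflamed. Both cell types depend on the transcription factor PU.1, encoded by Spi1, and on the growth factor CSF1, which binds the receptor CSF1R. Most Toll-like receptors, and the receptors for IL-1 and IL-18, signal through the adaptor Myd88, and macrophages are among the cells that use it.

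Across the series, the medians of the arrays lay between 6.0 and 6.1, and pairs of arrays correlated at 0.982 to 0.991, taken across probe sets and so not over independent points. The Myd88 probe set itself read 7.81, 7.86 and 7.53 in Myd88+/+ and 7.33, 6.80 and 7.47 in Myd88−/− glands, a difference of −0.53 (two-sided exact permutation p = 0.1, the smallest possible for 3 mice against 3). The sources used here do not say whether that probe set lies in the mutated part. Markers of the labelled tissue were bright, with Aqp5, the water channel of salivary acini, between 13.74 and 14.32, and Klk1, a kallikrein of the ducts, at the ceiling of 19.93 on every array. The median of 23 background control probe sets was 5.55, and a gene below it has no dependable size of difference. Values of replicates 1, 2 and 3 of a genotype are given in that order throughout.

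Among the 40 measured genes, 34 had a lower mean in Myd88−/− than in Myd88+/+ glands and 6 a higher one, where 47.5% of all 22206 tested probe sets had a lower mean (60.6% of the brighter 50% and 34.5% of the dimmer 50%). The median log2 difference was −0.43, beside 0.02 over all tested probe sets, and the range ran from −2.10 for Plbd1 to 0.34 for Chil3. No member passed limma's test adjusted over all probe sets (0 of 40, beside 0.0% of all probe sets), the smallest adjusted p being 0.309. With an intensity trend and robust variances limma called 1 member, Tmem176a. At an unadjusted p under 0.05, limma counted 17 members lower and 0 higher, where 5.55% of all probe sets were lower and 4.5% higher. Of the brighter 50% of all probe sets 8.95% were lower at that threshold, and of the dimmer 50% 2.15%. Without any moderation of variances the count of members was 9, and the share of all probe sets under that setting was not taken.

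Every member at least 2-fold lower, 11 in number, also had an unadjusted p under 0.05, a combination met by 0.725% of all probe sets. No Myd88−/− value reached the lowest Myd88+/+ value in 13 members, which held for 7.25% of all probe sets, and no member showed the reverse, which held for 7.84%. Without Myd88+/+ replicate 1, where 2 mice against 3 separate more easily, the count was 21, beside 11.2% of all probe sets. In whole-gland RNA, fewer macrophages, less of a transcript per macrophage and a change in other cells that make it cannot be told apart.

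**Figure D1:**
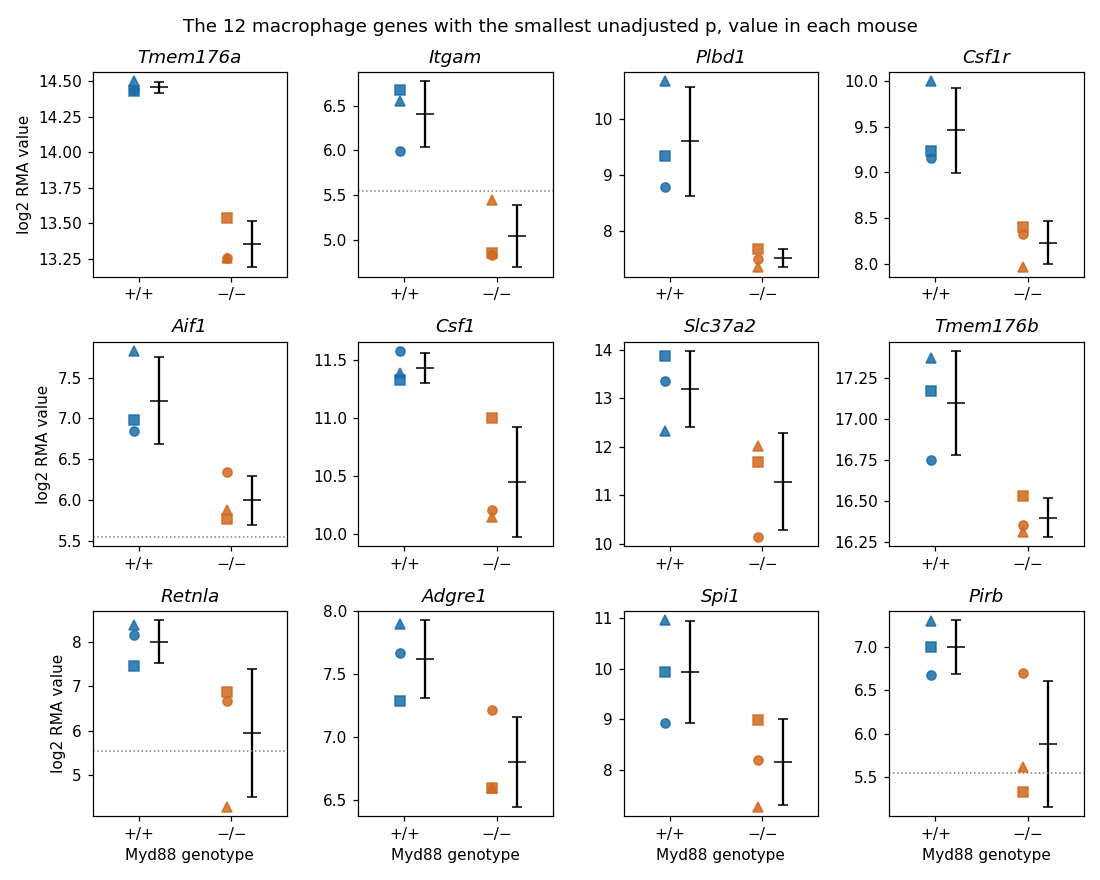
Log2 RMA value (vertical axis, a separate range for each gene) of the 12 macrophage genes with the smallest unadjusted p, in Myd88+/+ (blue) and Myd88−/− (orange) glands. Circles, squares and triangles are replicates 1, 2 and 3, black bars the mean ± SD of 3 mice, and the dotted line the background control median of 5.55 where a value comes near it. In 10 of the 12 genes all orange points lie below all blue ones, and in Spi1 and Pirb the groups touch.

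The lineage factors gave unlike differences, from unlike levels. Spi1, which encodes PU.1, the factor that commits blood progenitors to the myeloid lineages, read 8.93, 9.93 and 10.96 in Myd88+/+ and 8.20, 8.98 and 7.27 in Myd88−/− glands. The groups overlapped by 0.05, since Myd88−/− replicate 2 lay just above Myd88+/+ replicate 1, and the mean difference was −1.79 with a standard error (SE) of 0.53 (limma adjusted p = 0.388). Without Myd88+/+ replicate 3 the Spi1 difference was −1.28. Cebpb, a factor of the acute inflammatory response in myeloid and other cells, read 6.20, 6.30 and 6.37 against 6.52, 6.41 and 6.37, a difference of 0.14 with a 95% interval of −0.21 to 0.50. Maf, a factor of resident macrophages and also of T cells, read 6.47, 5.53 and 6.44 against 5.84, 6.38 and 6.56, with a difference of 0.11 and an interval of −0.54 to 0.77. For both Cebpb and Maf a difference as large as that of Spi1 lies outside the interval. However, their Myd88+/+ means, 6.29 and 6.15, lay close to the background control median of 5.55, while that of Spi1 was 9.94. A fall as large as that of Spi1 would take them below background, where RMA shrinks differences. The comparison therefore cannot show that Cebpb and Maf behave otherwise than Spi1.

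Because Spi1 is itself among the members, the bases before their start sites were searched for a core that PU.1 binds, GAGGAA, on both strands. RefSeq start sites on GRCm38.p6 were found for 30 of the 42 genes, and the 250 bases before the first listed start were read. The core was present in 13 of the 30, against 23.1% of 27025 genes. It was present in 6 of the 13 matched members lower at an unadjusted p under 0.05 and in 5 of the 15 other measured ones. A longer form, GAGGAAGT, which contains the core, occurred in 2 of the 30 and in 2.44% of all genes, and a C/EBP motif, TTGCNNAA, occurred in 2 of the 30 and in 9.55% of all. A match is a string of letters in these windows and does not show binding. The 6 windows of lower members that hold the core are shown from 250 bases before the start to the last base before it, 5′ to 3′ on the strand of the gene, with the core or its reverse complement in capitals.
Itgam, chr7:128062390-128062639, plus strand: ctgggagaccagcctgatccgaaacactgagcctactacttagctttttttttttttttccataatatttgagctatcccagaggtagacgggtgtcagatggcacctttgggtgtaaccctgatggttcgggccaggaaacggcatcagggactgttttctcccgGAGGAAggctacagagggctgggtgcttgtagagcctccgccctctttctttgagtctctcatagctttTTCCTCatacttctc
Aif1, chr17:35176053-35176302, minus strand: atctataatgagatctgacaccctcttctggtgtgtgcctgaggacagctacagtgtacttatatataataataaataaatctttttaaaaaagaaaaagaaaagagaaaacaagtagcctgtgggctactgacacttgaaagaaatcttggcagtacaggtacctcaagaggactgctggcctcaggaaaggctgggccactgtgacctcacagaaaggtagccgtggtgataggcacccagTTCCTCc
Pirb, chr7:3720383-3720632, minus strand: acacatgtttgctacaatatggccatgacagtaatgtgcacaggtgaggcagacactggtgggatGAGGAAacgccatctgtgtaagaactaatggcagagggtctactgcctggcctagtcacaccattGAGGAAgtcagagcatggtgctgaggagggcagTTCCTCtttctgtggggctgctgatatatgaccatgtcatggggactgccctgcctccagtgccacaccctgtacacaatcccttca
Mrc1, chr2:14229164-14229413, plus strand: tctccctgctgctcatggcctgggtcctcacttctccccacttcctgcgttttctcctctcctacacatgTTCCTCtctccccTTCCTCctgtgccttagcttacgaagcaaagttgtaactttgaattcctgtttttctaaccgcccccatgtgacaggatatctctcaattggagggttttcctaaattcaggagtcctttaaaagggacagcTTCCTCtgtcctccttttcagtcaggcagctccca
Retnla, chr16:48842359-48842608, plus strand: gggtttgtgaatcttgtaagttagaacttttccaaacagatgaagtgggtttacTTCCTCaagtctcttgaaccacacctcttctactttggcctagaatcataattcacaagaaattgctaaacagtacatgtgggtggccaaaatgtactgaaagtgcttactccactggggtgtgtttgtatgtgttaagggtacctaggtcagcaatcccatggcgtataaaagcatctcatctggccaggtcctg
Slc37a2, chr9:37255739-37255988, minus strand: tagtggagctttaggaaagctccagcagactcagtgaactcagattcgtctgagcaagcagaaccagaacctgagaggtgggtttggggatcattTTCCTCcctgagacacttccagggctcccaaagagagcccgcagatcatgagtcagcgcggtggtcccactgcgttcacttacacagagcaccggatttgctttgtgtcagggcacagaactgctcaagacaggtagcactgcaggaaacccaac

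Itgam held 2 matches, 84 and 15 bases before the start, and Aif1 a single one that begins 7 bases before it. Pirb and Mrc1 held 3 each, and Retnla and Slc37a2 held 1 each, 196 and 155 bases before their starts. The windows of Csf1, Plbd1, Cybb, Mpeg1, Itgax, Tmem176a and Tmem176b, which were also lower at an unadjusted p under 0.05, held none. Another listed start of Tmem176a and of Tmem176b each had 2, but these windows overlap and the 2 sites are the same.

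CSF1 and its receptor were both lower without overlap between the genotypes. Csf1r, the receptor tyrosine kinase on which the survival of macrophages and monocytes depends, read 9.16, 9.23 and 10.00 in Myd88+/+ and 8.33, 8.40 and 7.96 in Myd88−/− glands. The gap between the closest mice was 0.76, and the difference −1.23 with an SE of 0.25 (limma adjusted p = 0.321). Csf1, the ligand, which stromal, endothelial and epithelial cells make, read 11.58, 11.33 and 11.39 against 10.21, 11.0 and 10.15. Here the Myd88+/+ mice differed little, with an SD of 0.13, and Myd88−/− replicate 2 lay 0.33 below the lowest of them, for a difference of −0.98 with an SE of 0.24 (limma adjusted p = 0.345). Il34, the other ligand of the receptor, read 7.47, 7.0 and 7.28 against 7.34, 6.95 and 7.59, a difference of 0.04.

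General macrophage and myeloid markers had lower means in 8 of 8 measured genes, 7 at an unadjusted p under 0.05, and a median difference of −0.97. Itgam, the integrin subunit CD11b of monocytes, macrophages and neutrophils, read 5.99, 6.68 and 6.55 against 4.83, 4.86 and 5.45, a difference of −1.36 with an SE of 0.24 (limma adjusted p = 0.321). All 3 Myd88−/− values lay below the background control median, so the size of that difference is uncertain. Aif1, the calcium-binding protein IBA1 used to stain macrophages, read 6.85, 6.98 and 7.83 against 6.34, 5.76 and 5.88, a difference of −1.22. Adgre1, which encodes the adhesion receptor most used to mark mouse macrophages, read 7.67, 7.29 and 7.90 against 7.22, 6.60 and 6.60. Its genotypes were separated by only 0.07, with Myd88−/− replicate 1 next to Myd88+/+ replicate 2, and the mean difference was −0.81.

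Mpeg1, the pore-forming perforin-2 of phagocytes, read 7.88, 8.76 and 9.53 against 7.84, 7.91 and 7.11, a difference of −1.10. Pirb, an inhibitory receptor of myeloid and B cells whose close paralogs may cross-hybridise, read 6.68, 7.0 and 7.30 against 6.70, 5.33 and 5.62. In both genes a single Myd88−/− mouse lay just above Myd88+/+ replicate 1, so that the groups overlapped. Sirpa, the receptor for CD47 that restrains phagocytosis and is also made by neurons, read 11.60, 11.73 and 12.16 against 11.42, 11.51 and 10.76, a difference of −0.60 that was −0.37 without Myd88−/− replicate 3. Itgax, the CD11c subunit of dendritic cells and some macrophages, lay below background in both genotypes, at means of 5.05 and 4.64. Ms4a7, a membrane protein of resident macrophages, spread widely, with 6.61, 7.97 and 8.62 against 7.58, 7.10 and 6.0, and its difference of −0.84 had an interval of −2.01 to 0.33.

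Scavenger and resident receptors gave smaller differences, with 7 of 10 lower, 1 at an unadjusted p under 0.05 and a median of −0.19. The exception was Mrc1, the mannose receptor CD206, at 9.84, 9.44 and 10.91 against 9.22, 9.48 and 8.73, a difference of −0.92 that was −0.50 without Myd88+/+ replicate 3. Cd163, the receptor that clears haemoglobin with haptoglobin, read 6.92, 7.26 and 7.54 against 7.08, 6.62 and 6.71, with a difference of −0.44 and an interval of −0.92 to 0.04. Folr2, a folate receptor of resident macrophages, read 7.01, 6.88 and 7.01 against 6.55, 6.84 and 6.80. Its groups did not overlap but were only 0.05 apart, and the difference was −0.24.

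Siglec1, the sialic acid receptor CD169, had a difference of −0.21 with an interval of −0.62 to 0.20, and Timd4, a phosphatidylserine receptor of long-lived resident macrophages, had −0.15 with −0.69 to 0.38. The other 5 receptors lay below the background control median in both genotypes. These were Lyve1 and Stab1, which lymphatic or sinusoidal endothelium also makes, Marco and Msr1, class A scavenger receptors, and Vsig4, a receptor for complement fragments. Their differences ran from −0.30 for Lyve1 to 0.16 for Msr1, and all 5 changed sign when 1 mouse was left out, so they give no direction.

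**Figure D2:**
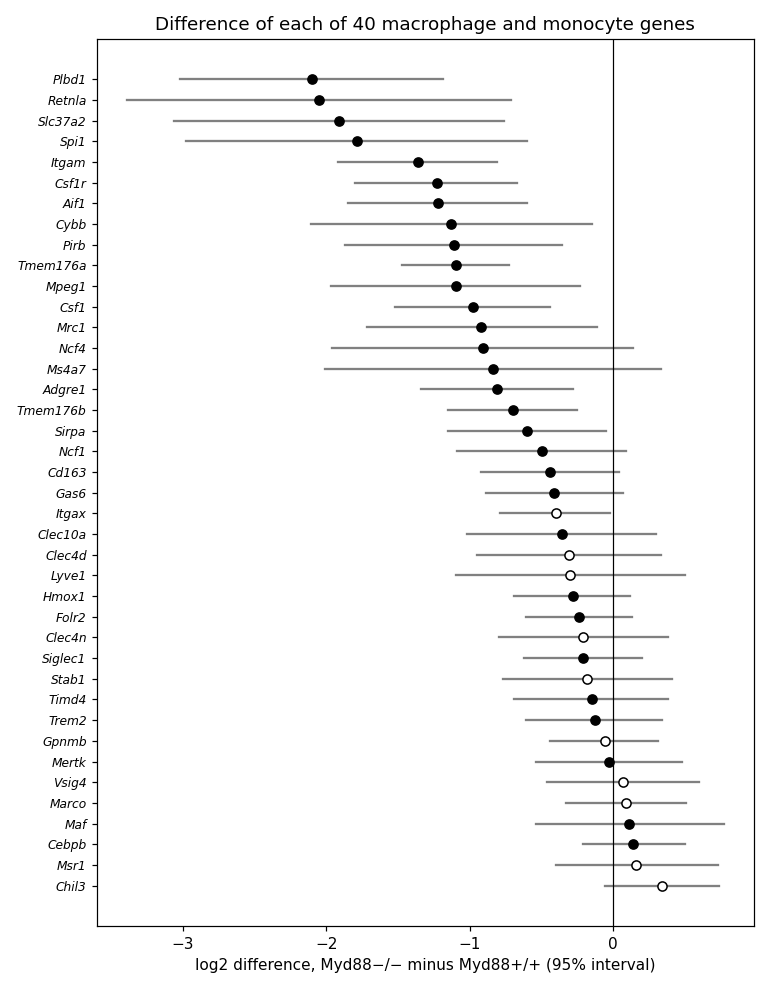
Log2 difference, Myd88−/− minus Myd88+/+, of each of the 40 measured genes (points), with limma's 95% interval (grey bars). Open points are the 10 genes whose group means were both below the background control median. Differences run from −2.10 for Plbd1 to 0.34 for Chil3, and 17 intervals lie wholly below 0.

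Of the receptors and bridging proteins for dying cells, neither passed a threshold. Mertk, a receptor kinase through which macrophages engulf apoptotic cells, read 7.18, 8.01 and 7.47 against 7.48, 7.44 and 7.65. These values are interleaved, the difference being −0.03 with an interval of −0.54 to 0.48, and it turned to 0.05 under quantile normalization. Gas6, the bridging ligand of that receptor family, which many stromal cells secrete, read 11.45, 11.28 and 11.35 against 10.84, 11.37 and 10.63. Myd88−/− replicate 2 lay inside the Myd88+/+ range and the others below it, for a difference of −0.41 and an interval of −0.89 to 0.07. Axl, the sister receptor, which is not a member, read 9.66, 9.43 and 10.06 against 8.39, 9.20 and 8.31, a difference of −1.08 without overlap (limma adjusted p = 0.349), and Tyro3, the remaining receptor of the family, had −0.19.

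C-type lectins, receptors for fungal and other glycans, gave little signal. Clec10a, a galactose-type lectin of macrophages and dendritic cells, read 6.93, 6.95 and 7.13 against 6.16, 6.40 and 7.38, so that Myd88−/− replicate 3 was the highest of all 6 mice. Its difference was −0.36, and −0.73 without that mouse. Clec4n and Clec4d, the dectin-2 and MCL receptors, were below background in both genotypes, with differences of −0.21 and −0.31.

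The markers of alternative activation, a state driven by IL-4 and IL-13, parted. Retnla, which encodes the secreted protein RELM alpha, read 8.15, 7.46 and 8.38 against 6.67, 6.88 and 4.30. All Myd88−/− values were lower, and the spread within that genotype, an SD of 1.43, came mainly from replicate 3, below background. The difference was −2.05 with an SE of 0.59 (limma adjusted p = 0.385), and −1.23 without that mouse. Chil3, the chitinase-like protein Ym1, from a family of near-identical genes, read 3.98, 4.22 and 3.95 against 4.53, 4.16 and 4.48, all below background.

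Genes of the lysosome and of lipid handling held the largest difference of the 40. Plbd1, a lysosomal phospholipase B-like protein of myeloid cells, read 8.79, 9.34 and 10.69 against 7.48, 7.67 and 7.35. The Myd88−/− mice lay within 0.32 of each other and 1.12 below the lowest Myd88+/+ mouse, for a difference of −2.10 with an SE of 0.41, a 4.30-fold lower level (limma adjusted p = 0.321). Slc37a2, a phosphate-linked sugar phosphate transporter of the endoplasmic reticulum that is abundant in macrophages, read 13.36, 13.88 and 12.33 against 10.14, 11.68 and 12.02. It differs from Plbd1 in its pattern, as Myd88+/+ replicate 3 was the lowest of its group and Myd88−/− replicate 1 by far the lowest of all. The difference of −1.91 had an SE of 0.51 (limma adjusted p = 0.368) and was −1.34 without Myd88−/− replicate 1. The Myd88+/+ mean of Slc37a2, 13.19, lay far above that of Csf1r, 9.46, and which gland cells made the transcript was not tested. Trem2 and Gpnmb, markers of lipid-laden macrophages, had −0.13 with an interval of −0.61 to 0.34 and −0.06 with −0.44 to 0.31, and Gpnmb lay below background in both genotypes.

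All 3 measured subunits of the phagocyte oxidase, the enzyme that makes superoxide to kill microbes, had lower means, but none separated the genotypes. Cybb, the membrane subunit gp91phox, read 10.81, 11.82 and 12.81 against 11.13, 10.51 and 10.41, a difference of −1.13 that was −0.63 without Myd88+/+ replicate 3 and −1.63 without Myd88+/+ replicate 1. Ncf4, the cytosolic subunit p40phox, read 5.98, 7.12 and 7.32 against 6.19, 4.88 and 6.62, a difference of −0.91, and Ncf1, the subunit p47phox, read 7.28, 7.85 and 8.26 against 7.54, 7.34 and 7.0, a difference of −0.50. In all 3 genes Myd88+/+ replicate 3 was the highest and replicate 1 the lowest of its group, and Myd88+/+ replicate 1 lay among the Myd88−/− mice. Among the other 9 oxidase genes with a probe set, 1 was lower and 1 higher at an unadjusted p under 0.05. These were Cyba, the partner of gp91phox, with −0.54, and Nox3, an inner ear isoform below background in both genotypes, with 0.52.

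Tmem176a and Tmem176b, neighbouring genes for paired ion channel proteins of myeloid and dendritic cells, were both lower in every Myd88−/− gland. Their Myd88+/+ means, 14.46 and 17.09, lay far above those of the macrophage markers Csf1r, 9.46, and Adgre1, 7.62. Which cells of the gland made the 2 transcripts was not tested, so their differences cannot be assigned to macrophages. Tmem176a read 14.44, 14.43 and 14.50 against 13.26, 13.54 and 13.26, with SDs of 0.04 and 0.16. The difference was −1.10 with an SE of 0.16, a 2.15-fold lower level (limma adjusted p = 0.309, or 0.0305 once variances were robust and followed intensity, in a range over settings of 0.0305 to 0.675). Tmem176b read 16.75, 17.17 and 17.37 against 16.35, 16.53 and 16.31, a difference of −0.70 with an SE of 0.20 (limma adjusted p = 0.384). RefSeq lists 2 starts for Tmem176a and 3 for Tmem176b, and the nearest opposed pair is 108 bases apart on GRCm38.p6. That stretch, in which both transcripts have their upstream sequence, is shown because the pair shares it. It holds no GAGGAA on either strand.
Tmem176b to Tmem176a, chr6:48841375-48841482, plus strand: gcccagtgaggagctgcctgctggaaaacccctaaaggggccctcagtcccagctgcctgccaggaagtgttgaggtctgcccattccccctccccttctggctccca

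Hmox1, haem oxygenase 1, an enzyme of stressed cells and of macrophages that take up red cells, read 6.96, 6.49 and 6.80 against 6.40, 6.54 and 6.47, a difference of −0.28 with an interval of −0.69 to 0.12.

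The members also showed how the mice of 1 genotype differed. The mean deviation of the 40 genes from their own 6-array means was 0.07, 0.33 and 0.54 in the Myd88+/+ mice and −0.26, −0.31 and −0.37 in the Myd88−/− mice. Myd88+/+ replicate 3 was the highest of its group in 21 of 40 members, against 31.0% of all probe sets, and replicate 1 the lowest in 24 of 40, against 34.0%. In the other members replicate 2 was the highest Myd88+/+ mouse in 12, Slc37a2 among them, and replicate 1 in 7, Csf1 and Gas6 among them. The SD was larger in Myd88+/+ than in Myd88−/− mice for 23 of 40 members, beside 45.7% of all probe sets. At an unadjusted p under 0.05, 12 members were lower in each of the 6 fits that left out 1 mouse, as were 1.96% of all probe sets. They were Adgre1, Aif1, Csf1, Csf1r, Itgam, Pirb, Plbd1, Retnla, Slc37a2, Spi1, Tmem176a and Tmem176b. A further 13 were lower in some of these fits and 15 in none.

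**Figure D3:**
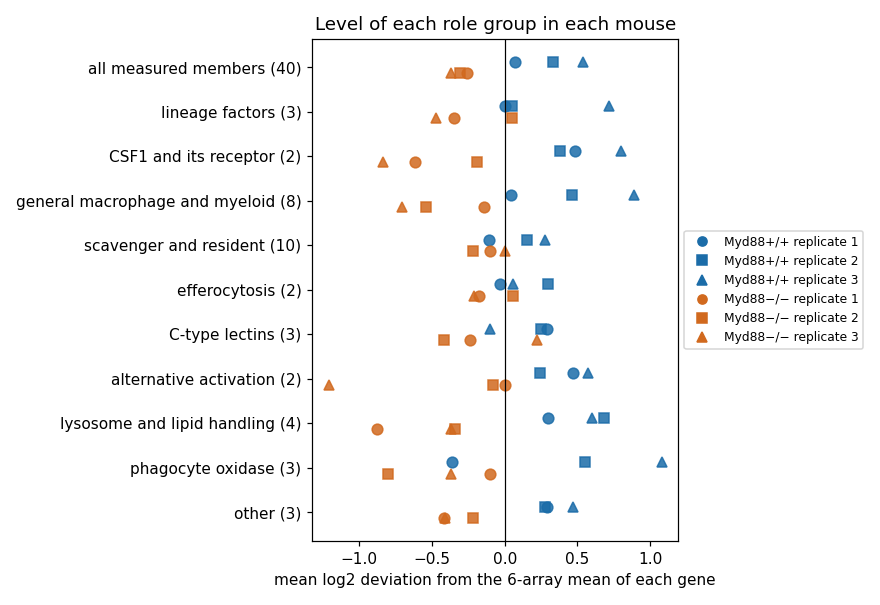
Mean log2 deviation from each gene's own 6-array mean (horizontal axis), for all 40 genes and for each role group (number of genes in brackets), in each mouse. Blue marks are Myd88+/+ and orange marks Myd88−/− mice. For all 40 genes the blue marks lie at 0.07 to 0.54 and the orange ones at −0.37 to −0.26, whereas the marks of the lineage factor, scavenger, efferocytosis, lectin and oxidase groups overlap.

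Other genes of the same pathways, listed by name and not members, were measured for 72 of 78. Of these 51 had a lower mean, 18 were lower and 1 higher at an unadjusted p under 0.05, and the median difference was −0.22. Over all probe sets 47.5% had a lower mean, and 5.55% were lower and 4.5% higher at that threshold. These shares also stand beside each list below. The 12 measured monocyte genes had 6 lower at that threshold and a median of −0.67. Lyz2, the lysozyme of myeloid cells, read 10.17, 10.87 and 12.59 against 9.38, 9.35 and 9.17, and Ccr2, the receptor that brings monocytes out of the marrow, read 7.52, 8.27 and 8.96 against 7.01, 6.28 and 6.75. Both separated the genotypes, with differences of −1.91 and −1.57, as did Ly6c2, a monocyte surface protein with a close paralog, with −1.07. Ccr2 and Cx3cr1, another of these 6 genes, lie on the same chromosome as Myd88, and so does the member Slc37a2. Whether any of these genes falls in the segment that may come from the other strain was not tested. The 12 further scavenger and complement genes also had 6 lower, with a median of −0.56, among them C1qb and C1qc, chains of complement C1q that macrophages secrete, with −1.63 and −1.40, and the lectin gene Cd209f with −1.55, a size that is uncertain because its Myd88−/− mean lay below background.

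Signalling partners of the lectins and of Trem2 were lower at that threshold in 1 of 10. It was Fcer1g, the adaptor chain of Fc receptors and of dectin-2, at 7.64, 9.14 and 9.10 against 6.47, 6.92 and 6.26, a difference of −2.08 without overlap (limma adjusted p = 0.321). Syk, the kinase downstream, had −0.51 and Plcg2 −0.52, with overlapping groups. Of 11 other efferocytosis genes 3 were lower at that threshold, Axl with −1.08, Elmo1 with −0.60 and Dock2 with −1.05, the last 2 being parts of an engulfment module that activates Rac. Of 12 other lineage factors 1 was lower, Runx1 with −0.44, and of 6 other genes of colony-stimulating factors and their receptors none was. Counts of 1 of 10 and 1 of 12 lie near the share over all probe sets, 5.55%, or 8.95% of the brighter 50%.

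**Figure D4:**
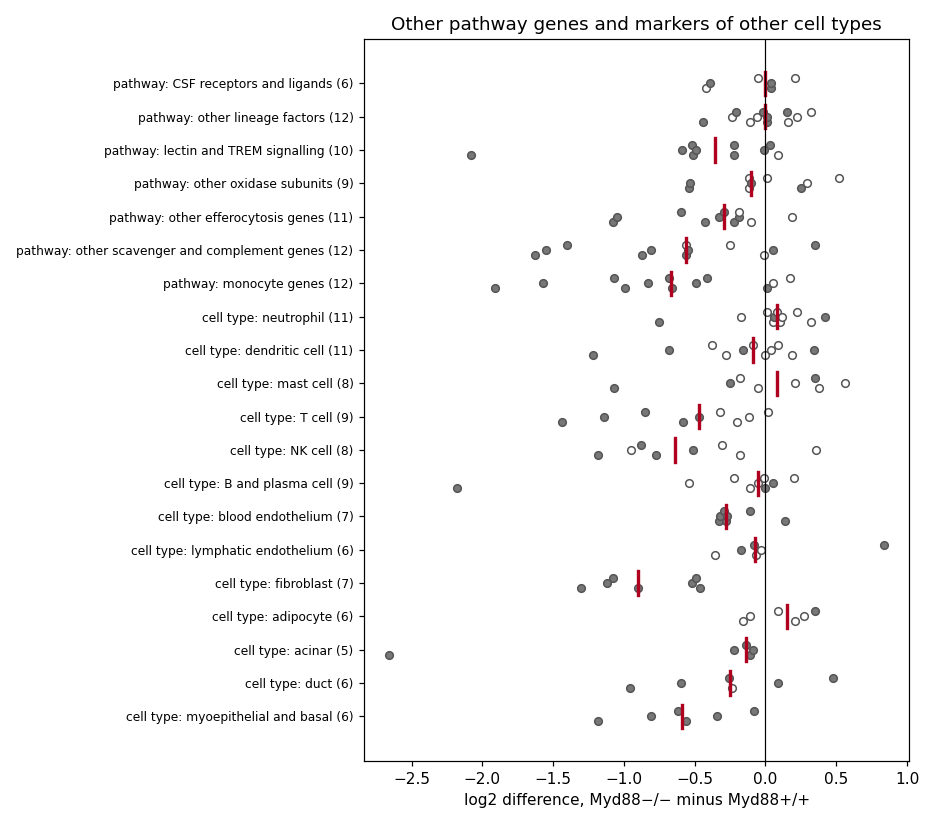
Log2 difference, Myd88−/− minus Myd88+/+, of other genes of the macrophage pathways and of markers of other cell types (1 point per gene, number of genes in brackets, red line the median). Open points have both group means below the background control median. The medians of monocyte genes and of fibroblast markers lie at −0.67 and −0.90, and that of neutrophil markers at 0.08.

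Several members are made by other cells too, and some of those cells' markers were lower in the same glands. Fibroblast markers were lower in 7 of 7, 6 of them at an unadjusted p under 0.05, with a median of −0.90, and their summed level (log2 of the sum of linear values) ran from 17.63 to 18.03 in Myd88+/+ and from 17.24 to 17.68 in Myd88−/− glands. Such a sum follows the brightest genes of its list more than the cell type, here the matrix gene Dcn, with means of 17.82 and 17.37. The smallest p of that list belonged to Fbln1, Col1a2 and Dpt, matrix genes with differences of −0.90, −1.12 and −1.30 and no overlap. T cell markers were lower in 8 of 9, 1 of them at that threshold, at sums of 9.01 to 10.30 and 8.61 to 9.09, and NK markers in 7 of 8, 4 of them at that threshold, at 8.56 to 9.26 and 8.28 to 8.48. Gzma, a granzyme of NK and T cells, had −0.88 without overlap. Klrb1c, with −0.95, lay below background in both genotypes, and Ncr1, with −1.18, had a Myd88−/− mean below background. For B and plasma cell markers 6 of 9 were lower, 2 at that threshold, at 8.79 to 11.77 and 8.09 to 9.65. Both means lay below background in 4 of 9 T cell, 4 of 8 NK and 6 of 9 B and plasma cell markers. The last include Fcmr, 1 of the 2 at that threshold. In Myd88+/+ replicate 3 Cd3e, a chain of the T cell receptor complex, read 8.26, where the other Myd88+/+ mice read 5.13 and 5.85, and Jchain, the joining chain of secreted antibody, read 11.65, where they read 8.02 and 9.49. The part of these cells in the member differences was not tested.

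Neutrophils, which also express Itgam, Clec4d and the oxidase, left few traces, as 8 of 11 of their markers had both means below background, S100a8 and Retnlg among them. Of these 11 markers, 2 were lower and 9 higher, none at an unadjusted p under 0.05, with a median of 0.08. Their sums were 8.26 to 8.84 in Myd88+/+ and 8.34 to 8.52 in Myd88−/− glands. Dendritic cell markers were lower in 6 of 11, 2 of them at an unadjusted p under 0.05, with sums of 8.82 to 9.74 and 9.06 to 9.25. Both means lay below background in 7 of these 11, Flt3 among them. The chemokine gene Ccl22 had −1.22, with a Myd88−/− mean below background. Markers of blood endothelium were lower in 6 of 7 and none at that threshold, with sums of 10.35 to 10.89 and 10.15 to 10.55. Those of lymphatic endothelium were lower in 5 of 6, none at that threshold, with a median of −0.08. Their sums were 8.79 to 8.91 and 8.64 to 8.89. Only Prox1, the factor of lymphatic endothelium, was higher, by 0.84 from a Myd88+/+ mean below background. Among epithelial markers, those of myoepithelial and basal cells were lower in 6 of 6, 2 of them at an unadjusted p under 0.05, with a median of −0.59 and sums of 13.63 to 14.35 in Myd88+/+ and 12.81 to 13.70 in Myd88−/− glands. Trp63, the transcription factor of basal epithelium, read 10.54, 10.66 and 10.49 against 9.14, 9.50 and 9.49, a difference of −1.18 without overlap (limma adjusted p = 0.309). Duct markers were lower in 4 of 6, 2 of them at that threshold, with a median of −0.25 and sums of 16.48 to 16.60 and 16.49 to 17.07. These 2 were Ascl3 and Foxi1, factors of duct ionocytes, with −0.96 and −0.60 and no overlap. Acinar markers were lower in 5 of 5, 1 of them at that threshold, with a median of −0.14 and sums of 20.14 to 20.62 and 20.10 to 20.31. That 1 was Bpifa2, a secreted salivary protein, with −2.66 and overlapping groups, since Myd88+/+ replicate 3 read 6.27 and Myd88−/− replicate 3 read 6.38. Its difference was −3.81 without Myd88+/+ replicate 3 and −1.91 without replicate 2, and its limma adjusted p of 0.388 ran from 0.0242 to 0.682 over the alternatives. The part of epithelial cells in the member differences was not tested either. Mast cell markers were lower in 4 of 8, with 1 lower and 1 higher at an unadjusted p under 0.05 and a median of 0.08. The lower one was Cpa3, with −1.07, no overlap and a Myd88−/− mean below background. The higher one was Fcer1a, with 0.56, below background in both genotypes. Adipocyte markers were lower in 2 of 6, and none passed that threshold in either direction. Of 7 heat shock and immediate early genes, which respond to handling of tissue, none was lower at an unadjusted p under 0.05 and 1 was higher, Fos, below background in both genotypes.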

How the data were processed

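The members and lists were chosen with earlier results of these data known. The deposited values are log2 expression values made by the authors with RMA, per the labels, in the Transcriptome Analysis Console named by the submitters' processing notes. RMA shrinks differences near background and cannot resolve them at the ceiling. The sources used here give neither its version nor the annotation's build. Of 28846 probe sets, 6640 controls were left out. Symbols came from the platform annotation, and the probe set with the highest mean stood for a gene. Genotypes (sample titles) were compared by lmFit and eBayes without covariates (limma 3.58.1, R 4.3.3), Benjamini-Hochberg adjusted over 22206 probe sets, and the fit was tested on simulated data. The simulated differences were larger than that of any member, so the simulation does not show whether differences of the members' sizes would be called. Genes on the ceiling in every array were left out of list counts and sums. Every member could be named, and of other lists up to 3 genes with the smallest p and defining markers; not all of these are named. Il34 and Tyro3 were added after their values were seen. Alternatives were other normalizations, filters on dim probe sets, variance models, a replicate block and leaving out each mouse. Mice share a number only by label, and same-numbered mice deviated together at r of −0.155 to −0.019, so the numbers pair no mice. P-values measure the spread between mice, and the number of arrays limits the precision.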

Additional observations from a re-analysis of the deposited data

How the results depend on the processing

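The limits of these values are 3 mice per genotype, a wide spread among the mice of either genotype and dim signal for 10 of the 40 genes. The 40 genes gave 621 values under 16 alternatives, of which 599 kept their sign and their side of the threshold, 1 passed it and 21 changed sign. The value that passed was Tmem176a with an intensity trend and robust variances. The count of members lower at an unadjusted p under 0.05 was 9 without moderation of variances, 15 with the replicate number as a replicate block, and 13 to 21 without 1 mouse, beside 17. The share of all probe sets was not taken under each of these settings. A shift of the members therefore cannot be told apart from a shift of the whole table. The median difference of the members was −0.60 without the dimmest 30% of probe sets and −0.87 without the dimmest 50%, where 35 and 26 members remained, and −0.59 to −0.37 without 1 mouse. Members whose groups did not overlap numbered 15 to 21 without 1 mouse, as 3 mice against 2 separate more easily. Of these fits, a share of all probe sets was taken only without Myd88+/+ replicate 1, where 11.2% were lower without overlap. Over all probe sets limma called 2 with median centring, 4 with an intensity trend and robust variances, and 0 to 5 without 1 mouse. The replicate block changed no call. Vsig4 was −0.03 and Mertk 0.05 after quantile normalization, and −0.02 and 0.04 after cyclic loess. Without 1 mouse the differences ran from −0.06 to 0.31 for Msr1, from −0.02 to 0.19 for Marco, from −0.20 to 0.32 for Maf, from −0.28 to 0.05 for Timd4, from −0.22 to 0.20 for Mertk, from −0.30 to 0.05 for Trem2, from −0.57 to 0.04 for Lyve1, from −0.10 to 0.28 for Vsig4, from −0.47 to 0.08 for Stab1 and from −0.37 to 0.08 for Clec4n. The cause of these shifts was not tested. The mean over probe sets of a gene left every member's value as it was, since each has 1.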
